A study of Mus musculus with 24 samples.

Results

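The data described here are the effect of deleting Tgfbr2 in the neural crest on gene expression in the distal end of the mandible of mouse embryos at E13.5 (embryonic day 13.5). The 6 distal mandible arrays, of 24 in the series, were chosen by their titles: 3 mutant arrays and 3 control arrays. The embryos came from crosses of Wnt1-Cre;Tgfbr2 fl/+ with Tgfbr2 fl/fl mice, and the strain label of both groups is C57B6. The mutants (Wnt1-Cre;Tgfbr2 fl/fl) were picked by their cleft palate and defective skull vault. Controls were littermates, which in this cross carry at least 1 floxed allele, and no source used here gives their Cre status or says whether embryos were pooled. Wnt1-Cre acts in neural crest cells, so blood, endothelium, muscle and surface epithelium of the mutant jaw are outside the deletion. The labels do not say that the replicates are separate animals, so the spread behind a p-value here may be technical. That spread was estimated over all 24 arrays. Regions of the same genotype and replicate number were taken as independent in that estimate.

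The type II TGF-beta receptor, encoded by Tgfbr2, binds TGF-beta ligands and then phosphorylates the type I receptor, which passes the signal to Smad2 and Smad3. In the mandible, neural crest cells give rise to most of the mesenchyme, cartilage, bone, tendon and tooth papilla, while the skeletal muscle comes from head mesoderm. The distal end holds the fused midline and the incisor region. Hypoxia-inducible factors (HIF) are transcription factors kept low by oxygen-dependent prolyl hydroxylases, and they raise enzymes of glycolysis and the hydroxylases themselves. Their activity was not measured here.

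The tissue label was held against several marker genes, of which some but not all set the distal mandible apart. Hand2, a transcription factor of the ventral and distal mandibular arch, lay between 13.17 and 13.51 on the log2 scale in the 6 distal mandible arrays. It lay between 11.02 and 11.68 in proximal mandible and at or below 9.475 in the maxilla. Barx1, which marks proximal jaw mesenchyme, lay between 8.301 and 9.326 in distal mandible and at or above 10.7 in each of the other regions, the distal maxilla included. Hand1 lay between 7.151 and 7.56 in distal mandible and at or below 7.057 elsewhere. Dlx5 and Dlx6 did not set the distal mandible apart. Their control medians were 10.66 and 9.407 there and 10.8 and 9.351 in distal maxilla. Msx1, Alx4 and Dlx3 each overlapped another region.

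Some arrays stood apart in ways that the groups do not explain. The difference between 3' and 5' control probe sets, a sign of RNA or labelling quality, was 0.0248 to 0.158 (log2) for Gapdh in the 3 control arrays. It was 0.492 to 0.597 in mutant arrays 1 and 3 and 0.0444 in mutant array 2, and the actin probe sets split the same arrays. Xist, expressed from the inactive X chromosome, lay between 6.395 and 6.979 in replicate 1 of each genotype and between 12.89 and 13.81 in the other arrays. The mean of the Y-linked genes lay between 3.72 and 3.819 in controls 2 and 3 and between 8.917 and 10.03 in the other arrays, so mutant arrays 2 and 3 held high levels of both. Y-linked RNA was therefore unbalanced between the genotypes, and the part of RNA quality and of sex in the results below was not tested beyond the adjusted fits given with the counts. The median standard deviation (SD) of a gene was 0.0758 over the control arrays and 0.155 over the mutant arrays.

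At a Benjamini-Hochberg adjusted p under 0.05 from limma, fitted on all 24 arrays, 124 of 13850 genes tested (0.895%) differed between mutant and control distal mandible. Of these, 50 were higher (0.361%) and 74 were lower (0.534%) in the mutant. The changes were mostly small: the median absolute difference was 0.41 (log2) among the higher genes and 0.39 among the lower genes. By the brightest probe set of each gene, only 1 gene rose at least 2-fold (Cep83os), while 5 fell at least 2-fold (Il33, 1810014B01Rik, Lyz2, Serinc4 and Usp18). Other probe sets of 1810014B01Rik and Serinc4 fell by less, as given below. The dim-gene level, the 40th percentile of all probe sets of an array, was 6.291 to 6.317 on these arrays. Of the 124, 111 lay above it on all 6 arrays, 7 on no mutant array and 2 of these (Clec4a3 and BC035044) on none of the 6, having passed the filter through other regions. At an unadjusted p under 0.05 there were 2086 genes, 1100 higher and 986 lower. The 3 mutant arrays did not overlap the 3 control arrays for any of the 124. This also held for 1282 genes on the higher side (9.26%) and 1246 on the lower side (9%) of all tested. Counts in the gene lists below stand beside these shares of all genes.

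The number of calls depended on single arrays. It was 7 without control 1, 19 without control 2, 12 without control 3, 19 without mutant 1, 877 without mutant 2 and 7 without mutant 3. H2az2, AU021092, Il33 and Mrpl36 were the 4 genes called in all 6 of these fits, and no gene was called under every alternative run. With arrays of the same genotype and replicate number as a random block, 68 genes were called, 61 of them among the 124. With the 6 distal mandible arrays fitted alone, 1 gene was called, Sncg (gamma-synuclein; 1.43 ± 0.0939, SE, limma adjusted p = 0.0181), and it is not among the 124. With the sex transcripts as covariates 15 genes were called, 11 of them among the 124, and with the Gapdh difference as a covariate 889 were called, including all 124. Without mutants 1 and 3 only H2az2 and Cd52 were called, with the lone mutant array assumed to vary like the other groups.

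**Figure D1:**
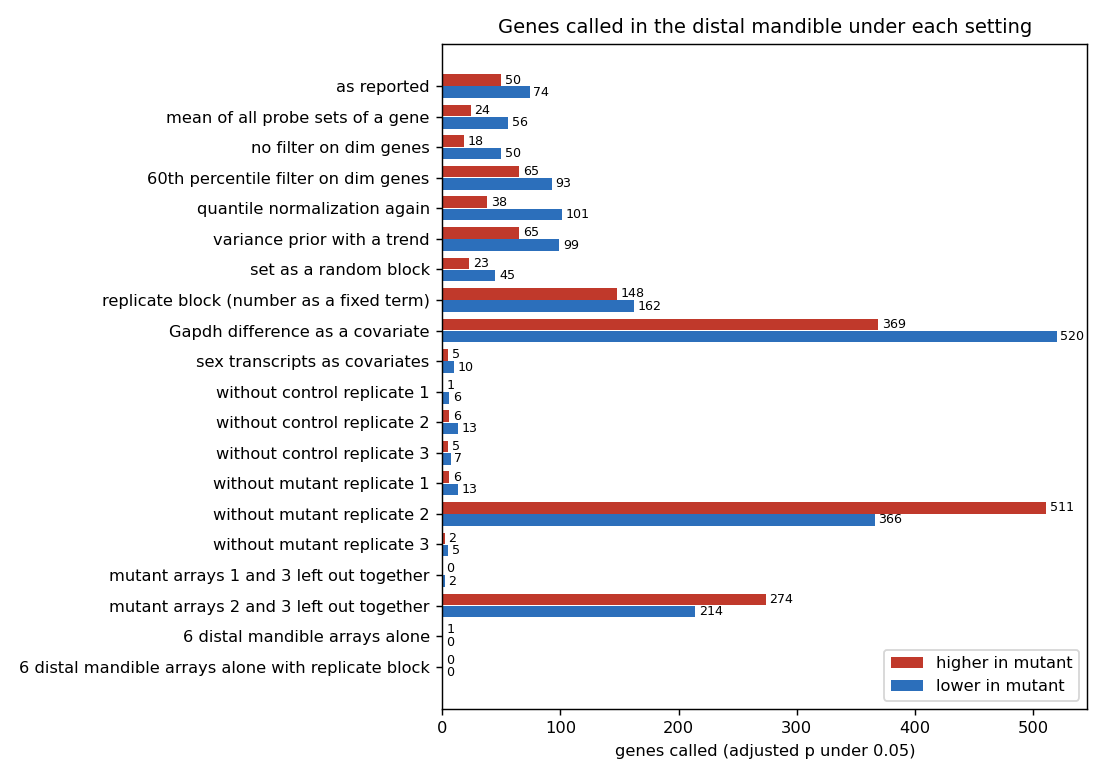
Number of genes called in the distal mandible (x axis; adjusted p under 0.05) under each setting (y axis), with genes higher in the mutant in red and lower in blue. The reported counts are 50 and 74, and the counts run from 0 to 520 in 1 direction across the settings.

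Tgfbr2 itself was not lower in the mutant arrays. Its brightest probe set read 12.07, 11.96 and 12.12 in controls 1 to 3 and 12.35, 12.49 and 12.39 in mutants 1 to 3, so every mutant array lay above every control array. The difference was 0.36 ± 0.109 (log2, SE, n = 3 and 3; limma adjusted p = 0.118). A dimmer probe set of the gene gave -0.19 ± 0.203. No source used here says where these probe sets lie relative to the floxed exon, and transcripts of the receptor also come from cells outside the neural crest, so these values do not check the genotype labels.

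The smallest p-value was that of H2az2, which encodes the histone variant H2A.Z.2. Its values were 13.66, 13.59 and 13.61 in controls and 12.81, 12.88 and 12.95 in mutants, with every mutant array below every control array. It fell by 0.74 on the log2 scale (SE 0.0641, 1.67-fold lower; limma adjusted p = 8.93e-06). A second probe set of H2az2 gave -1.05 ± 0.0858. The fall was of like size in the proximal mandible (-0.92), distal maxilla (-0.74) and proximal maxilla (-0.75).

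Il33 had the largest fall. This gene encodes interleukin-33, an alarmin of the interleukin-1 family that is stored in the nucleus of stromal and endothelial cells. It read 6.91, 6.93 and 7.16 in the control arrays and 4.90, 5.31 and 5.50 in the mutant arrays. The groups were far apart, and Il33 fell by 1.76 (SE 0.257; limma adjusted p = 0.00778). All 3 mutant values lay under the dim-gene level, so this difference is against a level that may be background. In the other regions the difference was -1.07 in proximal mandible, -0.82 in distal maxilla and -0.28 in proximal maxilla. The difference from the mean of these 3 was -1.04, with a 95% interval from -1.66 to -0.42 before adjustment, and no difference of this kind passed adjustment over all genes.

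The other members of the interleukin-33 axis did not pass the test. Of the 5 tested, Il33 was the sole call, and the list median was 0.086 against 0.022 over all genes. Il1rap, the accessory chain of the receptor, differed by 0.33 ± 0.117 (limma adjusted p = 0.181), with another probe set at -0.09. The adaptor kinase Irak1 (0.09) and the ubiquitin ligase Traf6 (0.13) lay near 0, with other probe sets at -0.03 and -0.05.

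Several of the largest falls were in genes of macrophages and other myeloid cells. Lyz2, lysozyme of macrophages, read 9.21, 9.56 and 9.74 in controls and 8.22, 8.22 and 8.53 in mutants. It fell by 1.18 (SE 0.189, 2.26-fold lower; limma adjusted p = 0.0118). Lyz1 fell by 0.99 (SE 0.196; adjusted p = 0.027), but the coding sequences of both genes are near-identical, so their probe sets may read the same RNA. Clec4a3, a C-type lectin of myeloid cells, read 6.08, 6.05 and 5.85 in controls and 5.28, 4.73 and 4.99 in mutants, and it fell by 1.00 (SE 0.178; limma adjusted p = 0.0169). All 6 of its values lay under the dim-gene level, so little rests on this gene.

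Of the 28 macrophage and myeloid markers tested, 3 were called lower and 0 higher, and 9 had non-overlapping arrays on the lower side. Over all genes tested, 0.534% were called lower and 9% had non-overlapping arrays on that side. The list median was -0.19, or -0.11 without mutant 2. Tlr1, a Toll-like receptor, differed by -1.07 ± 0.342 (limma adjusted p = 0.132). Ccr2 (-0.65), a chemokine receptor of monocytes, and Ptprc (-0.49), the pan-leukocyte antigen CD45, were lower on each mutant array without a call. Defining macrophage genes lay near 0: Csf1r, the receptor for the growth factor of macrophages, differed by 0.02, Cd68 by 0.04 and the mannose receptor Mrc1 by 0.04, while Adgre1, which encodes F4/80, differed by -0.21. The mean of the list on each array ran from 8.645 to 8.848 in controls and from 8.33 to 8.539 in mutants. In bulk tissue, fewer cells of a type and less RNA per cell cannot be told apart.

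Further called falls in leukocyte and platelet genes were picked out after their values were seen. Clec1b, a lectin receptor of platelets and myeloid cells that binds podoplanin, is also among the 15 largest falls. It read 7.66, 7.44 and 7.51 in controls and 6.92, 6.48 and 6.36 in mutants, and it fell by 0.95 (SE 0.155; limma adjusted p = 0.0119). Cd52, a surface glycoprotein of leukocytes, fell by 0.69, Cybb, the catalytic chain of the phagocyte oxidase, by 0.65, and Gimap4, a GTPase of lymphocytes, by 0.44. Gpr182, a chemokine-binding receptor of lymphatic and sinusoidal endothelium, fell by 0.57.

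The interferon response list gave 1 call among 22 tested members. Usp18, which removes the ubiquitin-like protein ISG15 and dampens interferon receptor signalling, read 7.43, 6.58 and 6.37 in controls and 5.59, 6.12 and 5.63 in mutants. It fell by 1.01 (SE 0.215; limma adjusted p = 0.0362), with control 1 the highest of the 6 arrays and all 3 mutants under the dim-gene level. In the other 3 regions the mean difference was 0.14, and of the 124 called genes only Usp18 and Lbx1 had the opposite sign there. The list median was -0.03: Bst2 (tetherin) differed by -0.34, Rtp4 by -0.33 and Rsad2 (viperin) by -0.32, each with a limma adjusted p of 0.387 or above.

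The hypoxia response and glycolysis list had 3 called members of 38 tested, all higher, where 0.361% of all genes were higher. Ndufa4l2, a HIF target that alters the mitochondrial respiratory chain and is also on the pericyte list, read 7.89, 8.15 and 8.36 in controls and 8.97, 8.97 and 8.74 in mutants. It rose by 0.76 ± 0.155 (1.7-fold; limma adjusted p = 0.0298). Egln3, an oxygen-dependent prolyl hydroxylase, read 8.76, 8.80 and 8.90 in controls and 9.25, 9.54 and 9.58 in mutants, and it rose by 0.63 ± 0.126 (adjusted p = 0.027), with a second probe set at 0.88. Pfkfb3, whose product activates phosphofructokinase, read 8.35, 8.43 and 8.37 in controls and 9.08, 8.77 and 8.99 in mutants. It rose by 0.56 ± 0.12 (adjusted p = 0.0362). For all 3 the lowest mutant array lay above the highest control array. Ndufa4l2 and Pfkfb3 were called in 1 and Egln3 in 2 of the 6 fits that left 1 array out.

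Most members of the hypoxia list were not called, and their differences were mostly small. At an unadjusted p under 0.05 in the limma fit, 19 of the 38 were higher and 0 lower. Over all 13850 genes these counts were 1100 and 986. All 38 members had a difference above 0, from 0.0035 (Pfkfb4) to 0.76, with a median of 0.16 against 0.022 over all genes. In 15 members the mutant arrays lay above the controls without overlap, as in 9.26% of all genes. Among members without a call, Aldoc (0.58), Pdk1 (0.51), Bnip3 (0.44), the glucose transporter Slc2a1 (0.42) and the lactate transporter Slc16a3 (0.44) differed by more than the median, while Hif1a (0.05) and Epas1 (0.03), which encode the oxygen-regulated subunits, and Car9 (0.02) lay near 0. Pfkl, a phosphofructokinase, differed by 0.61, but mutant 2 (10.68) lay within the control range of 10.52 to 10.77. The list median was 0.236, 0.134 and 0.178 above the control mean in mutants 1, 2 and 3. Against the median of all genes on the same array it was 0.199, 0.162 and 0.132 higher. Mutant 2, with a small Gapdh difference between 3' and 5' ends, was thus the lowest mutant against the control mean. It lay between the other mutants against all genes, and the part of RNA quality was not tested. In the other 3 regions the list median was 0.19.

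**Figure D2:**
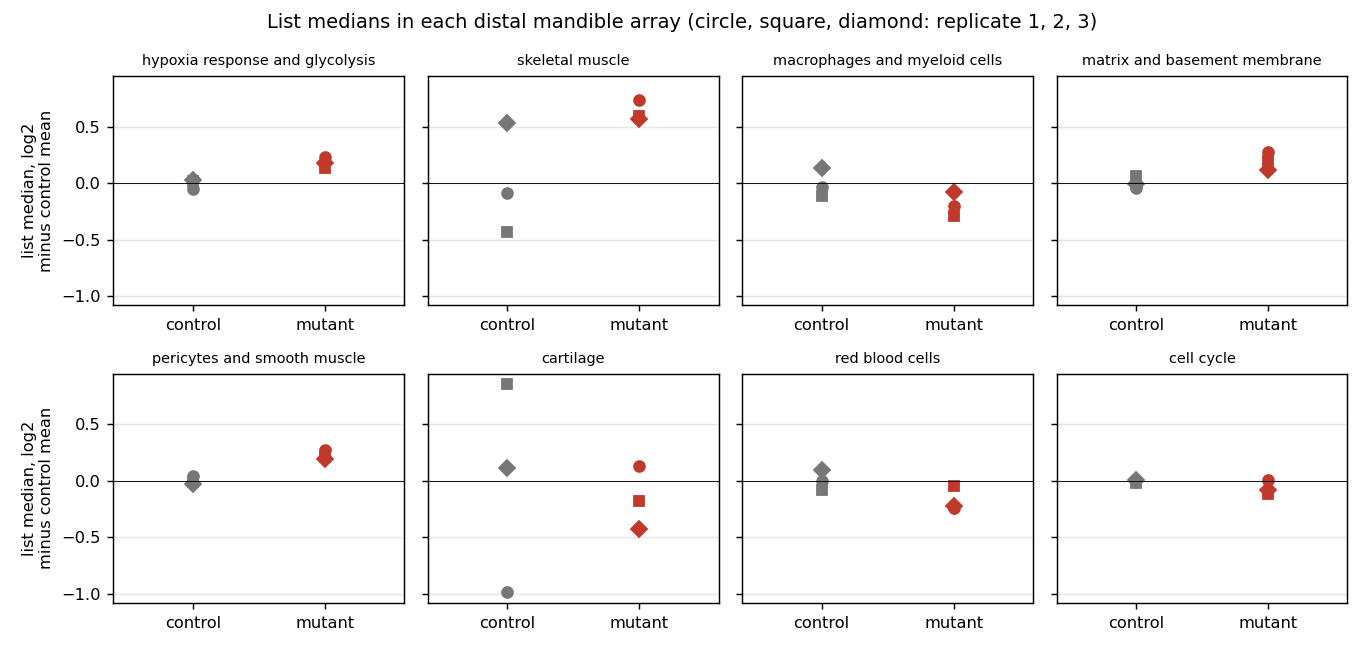
Median of a gene list on each distal mandible array (y axis, log2 minus the mean of the 3 controls; circle, square and diamond for replicates 1, 2 and 3) for 8 lists. The hypoxia and matrix medians of the 3 mutant arrays lie above those of the 3 controls, while control 3 lies near the mutants for skeletal muscle and the cartilage medians of the controls span the mutants.

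The core of the hypoxia response element, ACGTG, was searched on both strands of the promoters of these genes. It was 1 of 7 motifs searched, and it and the promoters printed were chosen after the matches had been seen. Promoters are windows of 300 bases (250 before to 50 after the start) from RefSeq, GRCm38.p6. The motif was present in 30 of 51 promoter entries of the list (58.8%), covering 27 of 35 list genes with an entry, and in 19.6% of all 32851 promoters. The list was chosen as genes of the hypoxia response and glycolysis, so its share describes the list and not the mutant. Base composition was not matched. Of the promoter entries of called genes, 18 of 49 held it on the higher side (36.73%) and 19 of 64 on the lower side (29.69%). Both shares were above that of all promoters. The promoters of the called genes Egln3 and Pfkfb3 are shown on the strand of the gene, with matches in capitals. The match in the first Pfkfb3 promoter reads CACGTG, which overlaps another motif searched, the E-box, so both of its strands match.

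Egln3 promoter, chr12:54203825-54204124, minus strand: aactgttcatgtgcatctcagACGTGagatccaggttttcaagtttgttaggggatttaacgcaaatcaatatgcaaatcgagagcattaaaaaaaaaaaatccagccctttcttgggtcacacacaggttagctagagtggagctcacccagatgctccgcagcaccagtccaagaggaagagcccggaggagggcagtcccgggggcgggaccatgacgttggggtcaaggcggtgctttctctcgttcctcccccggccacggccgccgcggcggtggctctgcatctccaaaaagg

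Pfkfb3 promoter 1, chr2:11502041-11502340, minus strand: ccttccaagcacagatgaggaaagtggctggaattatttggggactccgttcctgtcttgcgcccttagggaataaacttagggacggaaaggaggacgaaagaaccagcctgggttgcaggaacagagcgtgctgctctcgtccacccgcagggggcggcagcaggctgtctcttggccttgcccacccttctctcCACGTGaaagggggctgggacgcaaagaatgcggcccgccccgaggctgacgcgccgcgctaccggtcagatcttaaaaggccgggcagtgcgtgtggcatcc

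Pfkfb3 promoter 2, chr2:11553880-11554179, minus strand: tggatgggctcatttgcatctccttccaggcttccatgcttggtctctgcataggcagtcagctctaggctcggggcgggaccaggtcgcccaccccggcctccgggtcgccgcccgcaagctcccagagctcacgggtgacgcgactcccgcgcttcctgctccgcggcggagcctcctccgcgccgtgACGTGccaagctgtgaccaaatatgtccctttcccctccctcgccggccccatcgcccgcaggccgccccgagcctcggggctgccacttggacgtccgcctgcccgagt

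The other motifs were the E-box CACGTG (7.15% of all promoters), an interferon-type motif of GAAA, a pair of any bases and GAAA again (3.44%), and 4 Smad-related motifs: GTCTAGAC (0.21%), GTCTG followed by a pair of any bases and CAGAC (0.02%), AGCCAGACA (0.39%) and CAGACA (21.04%). The E-box was in 5 of 49 promoter entries of genes that rose (10.2%) and 3 of 64 of genes that fell (4.69%), and the interferon-type motif in 5 of 49 (10.2%) and 2 of 64 (3.12%). CAGACA was in 5 of 49 promoter entries of genes that rose and in 10 of 64 of genes that fell. The 3 longer Smad-related motifs were in none of either. These are matches of letters in a short window, not binding sites.

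Of 46 extracellular matrix and basement membrane genes tested, 2 were called, both higher, where 0.361% of all genes were higher. Smoc1, a secreted calcium-binding matricellular protein of basement membranes, read 9.57, 9.88 and 9.45 in controls and 10.57, 10.31 and 10.84 in mutants. It rose by 0.94 ± 0.202 (1.92-fold; limma adjusted p = 0.0374). Nid1, nidogen-1, which links laminin and collagen IV networks, read 11.62, 11.74 and 11.59 in controls and 12.32, 12.12 and 12 in mutants, and it rose by 0.49 ± 0.0807 (adjusted p = 0.0119). Both groups were apart for each gene. Of the list, 42 of 46 members had a positive difference and 17 had arrays apart on the higher side (9.26% over all genes). The list median was 0.18, as against 0.19 in the other regions. Sned1 differed by 0.71 ± 0.343, with control 2 (9.36) inside the mutant range, and Sparcl1 by 0.57 ± 0.143 (adjusted p = 0.0613).

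The elastic fibre list had 1 call among 16 tested, a fall. Fbln5, fibulin-5, needed to assemble elastic fibres and also on the list of TGF-beta responsive genes, read 10.61, 10.64 and 10.51 in controls and 10.03, 9.87 and 9.67 in mutants. It fell by 0.73 (SE 0.129, 1.66-fold lower; limma adjusted p = 0.0169). The fall was larger in proximal mandible (-1.78), distal maxilla (-1.16) and proximal maxilla (-1.23), a difference of effects of 0.66 with an unadjusted 95% interval from 0.35 to 0.97. Mfap4, a microfibril-associated protein, differed by -0.56 ± 0.161 (adjusted p = 0.103). Vit (vitrin; 0.87 ± 0.212, adjusted p = 0.0585) and the fibulin Efemp1 (0.62 ± 0.181, adjusted p = 0.105) had the opposite sign. The list median was 0.16, but 0.055 without mutant 1, 0.31 without mutant 2 and -0.094 without mutants 1 and 3.

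TGF-beta ligands, receptors and regulators had no call among 37 tested. At an unadjusted p under 0.05 there were 5 higher and 0 lower, and 30 of the 37 had a positive difference, with a median of 0.084. Tgfb2, a ligand, read 11.70, 11.76 and 11.70 in controls and 12.23, 12.14 and 12.21 in mutants, a difference of 0.47 ± 0.112 that missed the threshold (limma adjusted p = 0.0543). Inhbb, the activin B subunit, differed by 0.68 ± 0.209 (adjusted p = 0.122), with another probe set at -0.06. The ubiquitin ligase Smurf1 differed by 0.31, with mutant 2 (8.87) among the controls and another probe set at -0.04.

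TGF-beta responsive genes had 1 call among 32, the fall of Fbln5, and a median of 0.037. Acta2, smooth muscle actin, differed by 0.63 ± 0.212 (limma adjusted p = 0.154), while Ccn1, a matricellular protein, differed by -0.58 ± 0.16 (adjusted p = 0.0921). Scx, scleraxis, the transcription factor of tendon progenitors, differed by -0.57 ± 0.209 in distal mandible, and by -1.62 in proximal mandible, -1.38 in distal maxilla and -1.39 in proximal maxilla. The difference of effects for Scx was 0.90 (unadjusted 95% interval 0.39 to 1.40), which did not pass adjustment over all genes. On the tendon list, with 0 of 19 called, Thbs4 differed by -0.58, Htra3 by 0.52 and the late tendon marker Tnmd by -0.39.

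**Figure D3:**
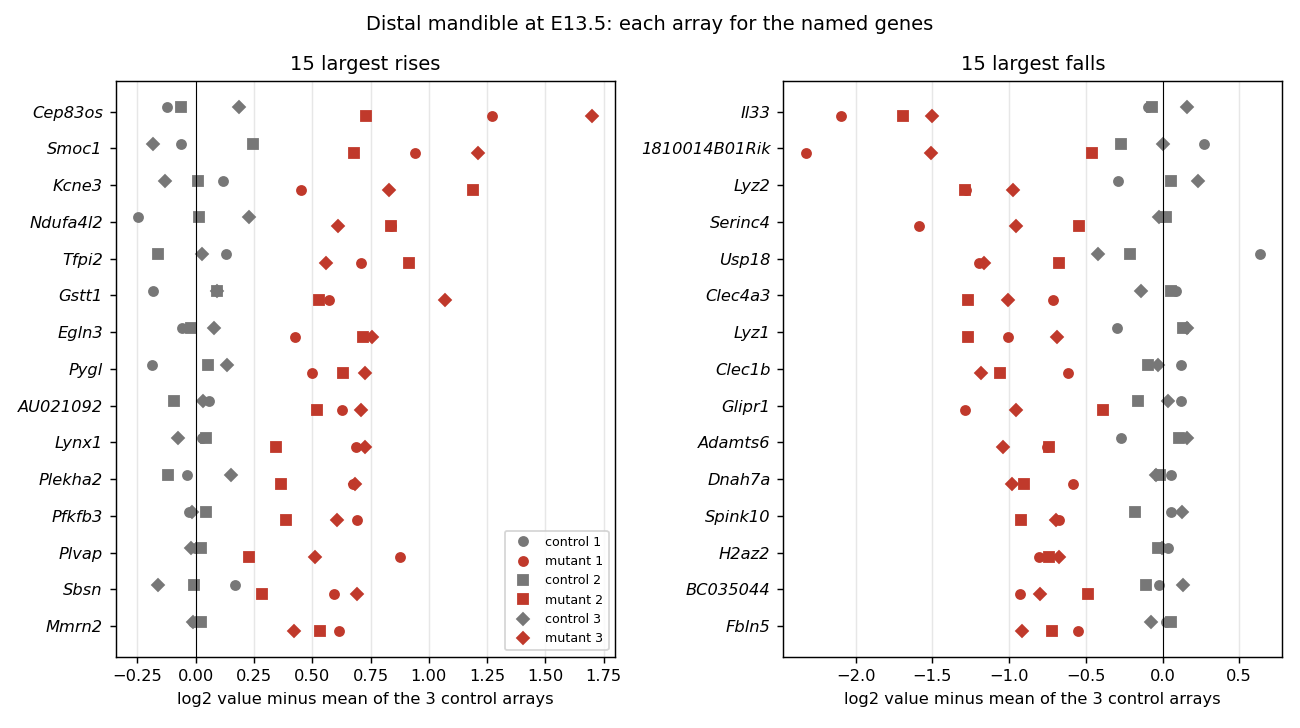
Each distal mandible array for the 15 largest rises (left) and the 15 largest falls (right), as log2 value minus the mean of the 3 controls (x axis); grey is control, red is mutant, and the symbol gives the replicate. No mutant array overlaps the controls for any of the 30 genes. Mutant 2 lies nearest to the controls for several, among them Cep83os, Smoc1, Plvap, 1810014B01Rik, Serinc4 and Glipr1, but not for Egln3 or Clec1b.

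The largest rise was in Cep83os, an RNA from the opposite strand of the centrosomal gene Cep83. It read 7.5, 7.56 and 7.81 in controls and 8.89, 8.35 and 9.32 in mutants, and it rose by 1.23 ± 0.266 (2.35-fold; limma adjusted p = 0.0382). The rise in the other regions was 1.11, 1.25 and 1.24. Kcne3, an accessory subunit of potassium channels, rose by 0.82 ± 0.185. Tfpi2, an inhibitor of serine proteases, rose by 0.73 ± 0.162. Gstt1, a glutathione transferase, rose by 0.72 ± 0.168, and its highest value was that of mutant 3 (9.16).

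AU021092, a transcript of unassigned function, read 6.92, 6.77 and 6.89 in controls and 7.49, 7.38 and 7.57 in mutants. It rose by 0.62 ± 0.0689 (limma adjusted p = 0.000237), the only rise called in all 6 fits that left 1 array out. Pygl, the liver form of glycogen phosphorylase, read 9.51, 9.75 and 9.84 in controls and 10.20, 10.33 and 10.43 in mutants, and it rose by 0.62 ± 0.107 (adjusted p = 0.0169). Pygl was called in 4 of those 6 fits, and its difference was 1.07 in proximal mandible and 1.00 in proximal maxilla. Plekha2, an adaptor that binds phosphoinositides, rose by 0.57 ± 0.1, against 1.00 in the mean of the other regions. Lynx1, a modulator of nicotinic receptors, rose by 0.59 ± 0.107, and Sbsn, suprabasin, rose by 0.52 ± 0.118.

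Vascular genes gave isolated calls. Plvap, which forms the diaphragms of endothelial fenestrae, read 10.21, 10.23 and 10.19 in controls and 11.09, 10.44 and 10.72 in mutants, and it rose by 0.54 ± 0.121 (limma adjusted p = 0.0439). It was the sole call among 23 endothelial markers, whose median was 0.12, but 0.057 without mutant 1, 0.24 without mutant 2 and -0.027 without mutants 1 and 3. Vwf (0.67), Lyve1 (0.63) and Esm1 (0.56) were not called, and the pan-endothelial genes Pecam1 (-0.32) and Cldn5 (-0.38) had the opposite sign. Mmrn2, an endothelial matrix protein outside the list, rose by 0.52 ± 0.0948, and Adgrl4, an adhesion receptor of endothelium picked out after its value was seen, rose by 0.43. Of 13 pericyte and smooth muscle markers, Ndufa4l2 was called and 6 had arrays apart on the higher side (9.26% over all genes). Their median was 0.26. Des differed by 0.73, Acta2 by 0.63 and Notch3 by 0.46 (adjusted p = 0.0707).

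Skeletal muscle had the largest list median, with no call. Of 41 markers tested, 37 had a positive difference and 13 had arrays apart on the higher side (9.26% over all genes). At an unadjusted p under 0.05 in the limma fit, 19 were higher and 0 lower, against 1100 and 986 of all 13850 genes. The list median was 0.69, against -0.28 in the other regions. Tnnc1, slow troponin C, read 7.91, 7.55 and 9.05 in controls and 9.68, 9.72 and 9.47 in mutants, a difference of 1.46 ± 0.346 (limma adjusted p = 0.053). Mymx, which drives fusion of myoblasts, read 6.77, 5.80 and 7.99 in controls and 8.19, 8.39 and 8.55 in mutants (1.52 ± 0.471, adjusted p = 0.125). Myh3, embryonic myosin, differed by 1.34 and Tnnt2 by 1.20, and for both control 3 lay among the mutants. The list median of control 3 was 0.536 above the control mean and that of control 2 was 0.428 below it (-0.428), so the controls spread further than the genotypes differed. Without control 3 the list median was 0.89, without control 2 it was 0.42, and with the sex transcripts as covariates it was 0.30.

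One regulator of muscle precursors was called, and it was picked out after its value was seen. Lbx1, a homeobox gene of migrating muscle precursors, read 6.87, 6.61 and 6.76 in controls and 7.25, 7.06 and 7.13 in mutants. It rose by 0.40 ± 0.0873 (limma adjusted p = 0.0382), while its difference in the mean of the other regions was near 0 (-0.0037). The difference of effects for Lbx1 was 0.40 (unadjusted 95% interval 0.19 to 0.62), which did not pass adjustment over all genes.

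Skeletal lists had no call. For cartilage (0 of 24 called, median -0.15) the controls themselves spread widely: Matn1, matrilin-1, read 7.40, 11.08 and 10.07 in controls and 10.83, 10.003 and 9.92 in mutants. The cartilage median was -0.58 without control 1 and 0.90 with the sex transcripts as covariates. In Snorc (0.42) and Chad (-0.63) the groups also overlapped, and Prg4, lubricin, differed by -1.13 ± 0.428 (limma adjusted p = 0.22). For bone (0 of 17, median -0.0041) Omd, osteomodulin, differed by -0.70, Tnfrsf11b, osteoprotegerin, by 0.55, Col1a1 by 0.55 and Sp7, osterix, by -0.42, each with an adjusted p of 0.285 or above.

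Patterning and tooth genes showed no call either. Among 26 tooth field genes (median 0.028) the signalling factor Fgf3 differed by -0.45 ± 0.14 (limma adjusted p = 0.124), Eda by 0.38 with another probe set at -0.05, Fgf20 by -0.36 and Osr2 by 0.30. Among 22 genes of mandibular patterning (median 0.013) Cited1 differed by -0.44, Gsc, goosecoid, by -0.41, Foxd1 by 0.26 and Dlx4 by 0.25.

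Of the other signalling pathways, FGF signalling gave 1 call among 22. Fgfr1, an FGF receptor, read 12.14, 12.29 and 12.13 in controls and 12.60, 12.43 and 12.61 in mutants. It rose by 0.36 ± 0.0696 (limma adjusted p = 0.0217), but another probe set gave -0.16. Fgfr4, a receptor of muscle precursors, differed by 0.52 without a call. BMP signalling (0 of 28, median -0.031) held Chrdl1, a BMP antagonist, at 0.84 ± 0.237 (adjusted p = 0.0976), the BMP target Id1 at -0.48, Bmp5 at -0.42 and Chrd at 0.34. WNT signalling (0 of 44, median 0.0059) held Wnt11 at 0.41, Sfrp4 at 0.38, Rspo3 at -0.35 and Fzd9 at -0.32. Hedgehog signalling (0 of 19, median 0.061) held Foxd2 at 0.54, the target Gli1 at 0.36 and the inhibitor Sufu at 0.32.

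Growth and stress lists gave 1 call. For the cell cycle list 0 of 39 were called, but 10 had arrays apart on the lower side (9% over all genes). In the limma fit 7 had an unadjusted p under 0.05, all lower. Of the 39, 6 had a positive difference, and the median was -0.056, or 0.012 without mutants 2 and 3. Ccne2 differed by -0.30, Bub1 by -0.25 with another probe set at 0.18, Cdc6 by -0.21 and Rrm1 by -0.21. Of the p53 targets (0 of 19, median 0.065), Fas differed by 0.31, Ccng1 by 0.28 with other probe sets at -0.11 and -0.19, Eda2r by 0.27 and Btg2 by 0.26 with another probe set at -0.36. Among 25 immediate early and heat shock genes Ier2 was called: it read 11.22, 11.17 and 11.21 in controls and 10.79, 10.92 and 10.84 in mutants, and it fell by 0.35 (SE 0.072; limma adjusted p = 0.0296). Egr2 differed by -0.48 and the chaperone Hsph1 by -0.25.

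Markers of further cell types had 1 call. Among lipid storage genes (18 tested), Zfp423, a transcription factor of fat cell precursors, rose by 0.34 ± 0.0751 (limma adjusted p = 0.0439), while Cebpa differed by 0.36, Lpl by -0.35 and Fabp4 by -0.34. No epithelial marker of 24 was called (median 0.095): Krt4 differed by 0.46, Jup by 0.46, Cldn7 by -0.37 and Krt19 by 0.28. No Schwann cell marker of 11 was called (median 0.020), with Ngfr at 0.46, Fabp7 at -0.37 and S100b at 0.37. No neuronal marker of 18 was called (median 0.071), with the neurofilaments Nefl at 0.70 and Nefm at 0.59, Dcx at -0.43 and Snap25 at 0.31. No red blood cell gene of 10 was called (median -0.16), with the globins Hba-a2 at -1.16, Hbb-bh1 at -0.49 and Hba-x at -0.28 and the carbonic anhydrase Car2 at -0.40. For Hba-a2 mutant 2 (7.79) lay among the controls and mutants 1 and 3 (6.01 and 6.37) below them.

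**Figure D4:**
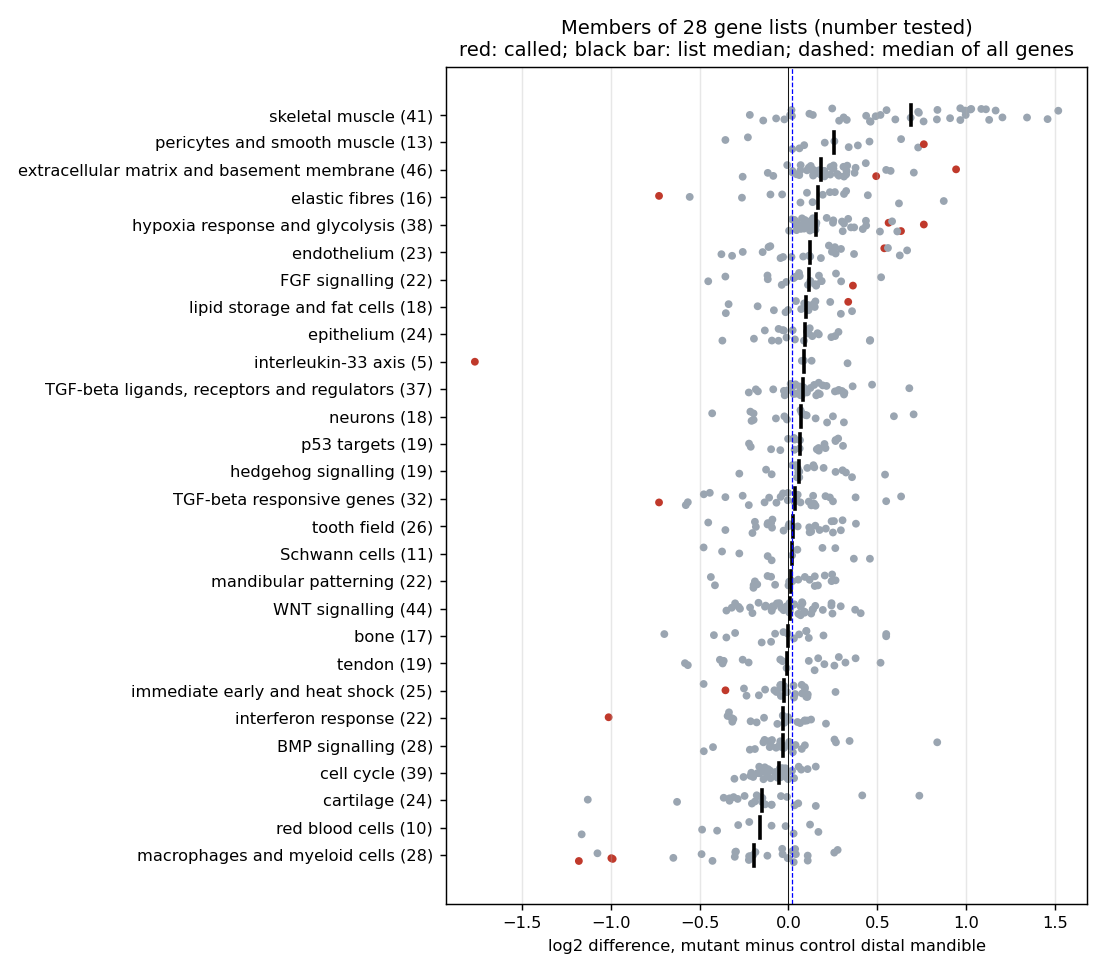
Difference between mutant and control distal mandible (x axis, log2) for each tested member of 28 gene lists (y axis, number tested in brackets); red points are called, black bars are list medians and the dashed line is the median of all genes. The skeletal muscle median (0.69) is the highest and that of macrophages (-0.19) the lowest.

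Among the remaining large falls, 1810014B01Rik read 10.78, 10.24 and 10.52 in controls and 8.19, 10.05 and 9.004 in mutants, and it fell by 1.43 (SE 0.315; limma adjusted p = 0.0408). Serinc4, a membrane protein of the serine incorporator family, read 7.65, 7.67 and 7.63 in controls and 6.07, 7.11 and 6.70 in mutants, and it fell by 1.03 (SE 0.202). For both genes mutant 1 was the lowest array and mutant 2 the nearest to the controls. Glipr1 fell by 0.88 with the same order of mutants. Other bright probe sets of these genes fell by less. They gave -0.38, -0.13 and -0.11 for 1810014B01Rik, -0.35 for Serinc4 and -0.19 for Glipr1. Adamts6, a secreted metalloprotease, fell by 0.84, Dnah7a, an axonemal dynein, by 0.82, Spink10, a protease inhibitor, by 0.76, and BC035044 by 0.74. BC035044 was under the dim-gene level on all 6 arrays and Dnah7a on the 3 mutant arrays.

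Small falls also included mitochondrial ribosomal proteins and RNA polymerase II subunits. These families were looked at after the called genes had been seen. Of 76 mitochondrial ribosomal proteins (Mrpl and Mrps), 6 were lower and 0 higher, where 0.534% of all genes were lower, and the family's median was -0.14 against 0.022 over all genes. Since calls in the family led to it, its count is only a description. Mrpl36 read 10.20, 10.20 and 10.23 in controls and 9.79, 9.93 and 9.88 in mutants, and it fell by 0.34 (SE 0.0522; limma adjusted p = 0.00981). Mrpl14 fell by 0.58, Mrpl17 by 0.39, Mrpl34 by 0.39, Mrps16 by 0.32 and Mrpl42 by 0.24. Of 11 RNA polymerase II subunits 3 were lower (Polr2f, Polr2c and Polr2j), with a median of -0.11. Of the 3 other families looked at, complex I subunits (34 tested, median -0.096) had 1 call, the rise of Ndufa4l2, which their shared symbol stem takes in, and cytosolic ribosomal proteins (52, median -0.035) and proteasome subunits (39, median -0.094) had none. In the mitochondrial ribosomal family the median was -0.22 on mutant 1, -0.060 on mutant 2 and -0.078 on mutant 3.

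Other called genes chosen after their values were seen were single members of varied groups. The cytokine Tnf (0.45) and its receptor Tnfrsf1b (0.42) both rose, while Tnfrsf12a, the receptor for TWEAK, fell by 0.41. Tnf was called in 5 and Tnfrsf1b in 4 of the 18 alternatives that tested them. Each was called in 1 of the 6 fits that left 1 array out. Of Tnf, the values were 6.19, 6.15 and 6.23 in controls and 6.68, 6.39 and 6.86 in mutants, with mutant 2 nearest the controls and all 3 controls under the dim-gene level. Gabbr1, a GABA receptor subunit, rose by 0.41, Vldlr, a lipoprotein receptor, by 0.48, and the clock output gene Dbp by 0.38. With the mean of all probe sets of a gene, Gabbr1 was not called (limma adjusted p = 0.946), nor was Tnfrsf1b (0.692). Rasl11b, a small GTPase, fell by 0.55 and Csrp2, a LIM protein, by 0.44. The chromosome segregation genes Cenpm, Cdca8 and Spc24 fell by 0.40, 0.27 and 0.25, and the DNA polymerase subunit Pole2 by 0.21.

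To ask whether the genotype effect was different at the distal mandible, it was compared with the effect in the other regions by contrasts in the same fit. No gene of 13850 (0%) was called for the difference from the mean of the other 3 regions, from proximal mandible or from distal maxilla. At an unadjusted p under 0.05 there were 483, 552 and 421 genes, and the smallest limma adjusted p were 0.828, 0.136 and 0.909. With the set (arrays sharing genotype and replicate number) as a random block, 0, 7 and 1 genes were called. The 7 against proximal mandible were Atp1b4, Dmp1, Fbln5, Grem1, Ldlrad4, Lpar3 and Prokr2, and the 1 against distal maxilla was Gas2.

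The genes with the smallest p for these differences are given as values. Against the mean of the other regions they were Usp18 (-1.15), Fbln5 (0.66), Ldlrad4 (0.44) and Grem1 (0.87). Grem1, a BMP antagonist, read 7.64, 7.503 and 7.77 in controls and 7.91, 7.89 and 7.88 in mutants of the distal mandible, while its difference in proximal mandible was -1.08. Ldlrad4, an inhibitor of TGF-beta signalling, differed by -0.08 in distal mandible and by -0.52 in the mean of the others. Dmp1, a matrix protein of bone and dentine, differed by 0.06 here and by 2.51 in proximal mandible, and Prokr2, a prokineticin receptor, by 0.10 here and by -2.38 there. Against distal maxilla the leading genes were Gas2 (1.08), Usp18 (-1.40), Fgd3 (-0.47) and Tnnc1 (2.20).

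**Figure D5:**
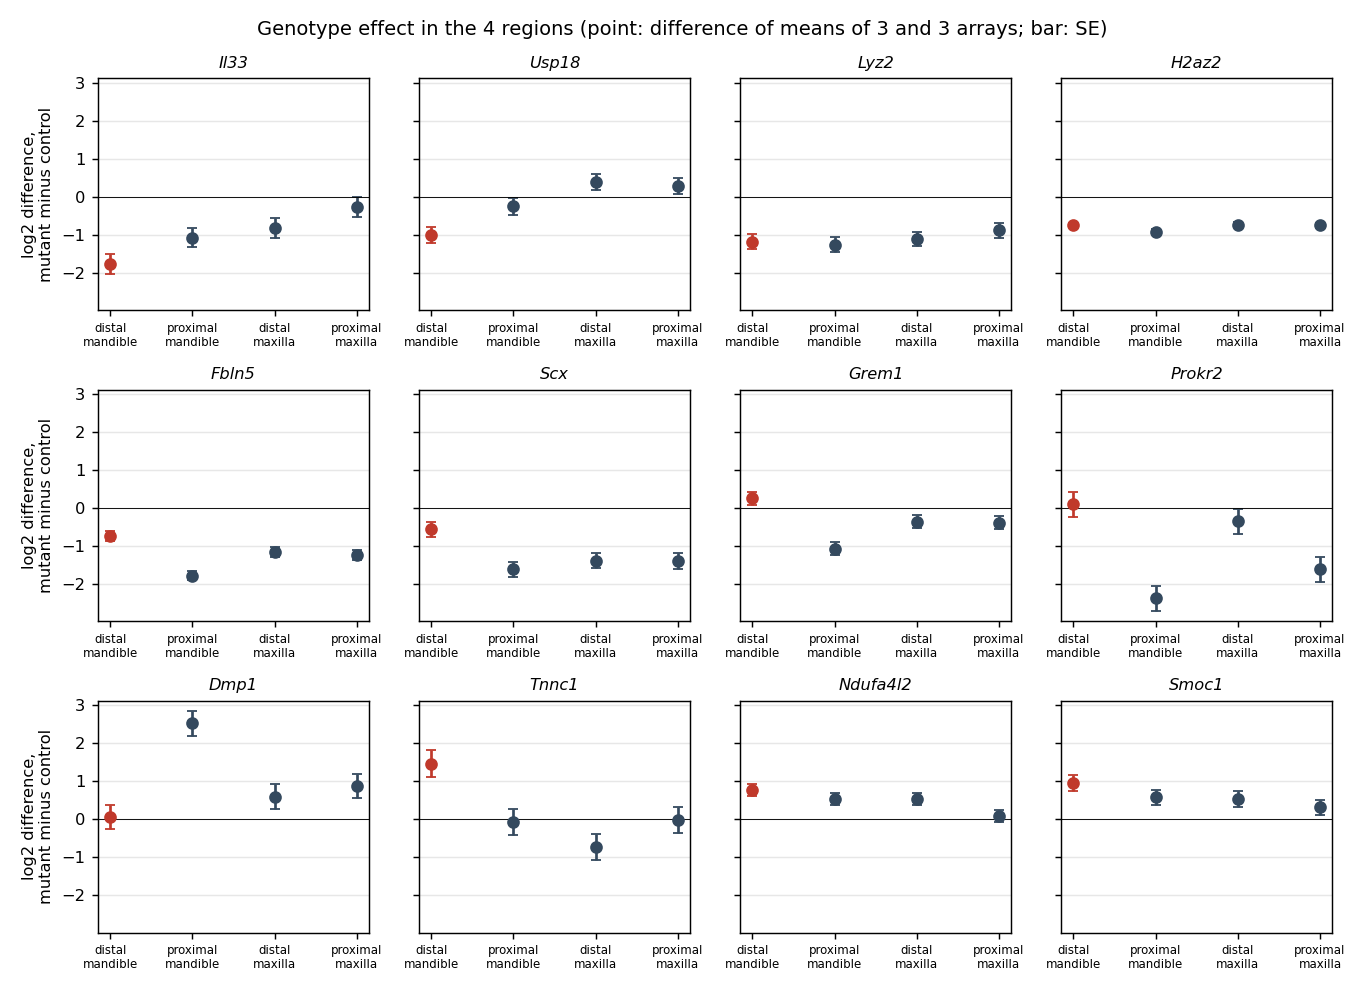
Genotype effect (y axis, log2, mutant minus control; bars are SE, n = 3 and 3 arrays) in the 4 regions (x axis) for 12 genes, with distal mandible in red. Usp18 is below 0 in distal mandible and above 0 in both maxillary regions, Fbln5 and Scx are nearest to 0 in distal mandible, and H2az2 is alike in all 4.

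Most of the distal mandible calls had the same direction elsewhere. Of the 124, 122 had the same sign in the mean of the other 3 regions and 113 were called there in the same direction, which is 91.1% of the 124 and 2.85% of the 3968 genes called there (28.6% of all genes). In proximal mandible, where 5.36% of all genes were called (2.85% higher and 2.51% lower), 73 of the 124 were called in the same direction. In distal maxilla, at 7.08% (3.02% higher and 4.06% lower), 92 were, and in proximal maxilla, at 5.7% (3.32% higher and 2.38% lower), 76 were. In all 4 regions 58 were called. A further 23 were called in no single other region, among them Usp18, Serinc4, Glipr1, Dnah7a, Smoc1, Plvap, Sbsn, Cybb, Lbx1, Tnf and Tnfrsf1b, and for none of these did the difference of effects pass adjustment. The arrays of a set deviated together across regions, so the regions are not independent samples. The Gapdh difference between 3' and 5' ends was also raised in mutants 1 and 3 of the other regions (0.249 to 0.773), against at most 0.11 in their controls. Y-linked RNA was unbalanced between the genotypes there in the same way. The part of RNA quality and of sex in the shared direction was not tested. Fewer genes were called here than in proximal mandible (742), distal maxilla (980) or proximal maxilla (789), and whether these counts differ was not tested.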

How the data were processed

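Gene expression was measured on Affymetrix mouse arrays, 24 in 8 groups of 3, from total RNA (RNeasy, 5 µg labelled per the labels). The deposited values are log2 signals made by the authors with RMA, per the submitters' processing notes; no source used here gives its version or says which arrays were normalized together. Of 45101 probe sets, 34958 named 1 gene, 932 several and 9211 none (34754 matched RefSeq, GRCm38.p6). Each of 18194 genes took its brightest probe set, and 13850 lay above the 40th percentile of the array on at least 3 arrays. All 24 arrays entered a limma 3.58.1 fit (R 4.3.3) that gave every group its own coefficient and left 16 residual degrees of freedom, with Benjamini-Hochberg adjustment over all genes and a threshold of 0.05. Each ± is an SE of a log2 difference. The method was tested on simulated data with independent normal errors and, for each gene, the same SD on all arrays. The simulation left out the correlation within a set (0.401) and the larger median SD of the mutants (0.155 against 0.0758). It therefore does not show how well the p-values hold here. The number of arrays limits the precision.

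The text names Tgfbr2, the 15 largest rises and falls among calls with non-overlapping arrays, in each of 28 lists the called and then the largest members, up to 4, and the 4 smallest p for each difference of effects. The sex-linked list is given as ranges. Alternatives changed the probe set rule, the filter, the normalization, the variance prior, blocks, covariates and the arrays used. Of 697 list symbols 654 were found. The members and lists were chosen with earlier results of these data known, and genes outside this rule were chosen after their values were seen. An opposite value of another bright probe set is printed beside its gene, while values of the same sign are printed for some genes only.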

Additional observations from a re-analysis of the deposited data

Results flagged for a closer look

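The difference between 3' and 5' control probe sets was not part of any comparison, and it was above every control array in mutant distal mandible arrays 1 and 3. For Gapdh it was 0.597 and 0.492 (log2), against a highest control of 0.158. For actin it was 0.613 and 0.613, against a highest control of 0.337. Mutant array 2 was within the control range for both. Without mutants 1 and 3 the fit rests on 1 mutant array. None of the 124 could turn in direction there, since no mutant array overlaps the controls for any of them. Their kept direction is therefore no check on RNA quality. With the Gapdh difference as a covariate 889 were called, all 124 included.

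Probe sets that name no gene or several genes were left out of the gene comparisons. Of 3941 such probe sets tested, 7 were called between mutant and control distal mandible (0.178%), 4 higher and 3 lower, in a limma fit over 28952 probe sets that called 95 in all.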

How the results depend on the processing

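All 19 alternatives run on the genotype effect in distal mandible were chosen with earlier results of these data known. Genes higher and lower were 50 and 74 as reported. Genes higher were 24 with the mean of all probe sets of a gene and 18 with no filter on dim genes; genes lower were 56 and 50. Quantile normalization again gave 38 higher and 101 lower, so the share of calls that were higher went from 40.3% to 27.3% (30% and 26.5% for the 2 settings before). With the set as a random block the counts were 23 and 45, with the Gapdh difference as a covariate 369 and 520, and with the sex transcripts as covariates 5 and 10. The 60th percentile filter (65 and 93) and a variance prior with a trend (65 and 99) stayed within 1.5 times. Leaving out 1 array gave 1 to 511 higher and 5 to 366 lower. Leaving out mutants 1 and 3 gave 0 and 2, leaving out mutants 2 and 3 gave 274 and 214, and the 6 arrays alone gave 1 and 0. Averaging the probe sets turned the direction of 4 of the 124 called genes, none of them named. The cause of these shifts was not tested. Of 28 list medians, 24 moved over 1.5 times or changed sign on leaving out 1 array, and 11 changed sign.

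Replicate numbers are shared by the groups. Deviations from the group mean of same-numbered control and mutant distal mandible arrays had correlations of 0.0408, -0.134 and 0.0301. Correlations within groups of 3 are too few to tell whether the numbers share more than a label. With the number as a replicate block the counts were 148 and 162, and 0 and 0 with the block on the 6 arrays alone, where 1245 genes had an unadjusted p under 0.05.

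The differences of effects had 0 calls as reported and under every alternative run, the set as a fixed block and each array left out included, with 2 exceptions. The set as a random block (correlation 0.401) gave 0 against the other 3 regions, 7 against proximal mandible and 1 against distal maxilla. Leaving out mutants 2 and 3 gave 60, 20 and 10.

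Over the fits that left 1 array out, Dmp1 ran from -0.091 to 0.16, Gas2 from -0.17 to 0.14, Snorc from -0.15 to 0.93, Fzd9 from -0.69 to 0.031, S100b from -0.21 to 0.82, Fabp4 from -0.55 to 0.052 and Hsph1 from -0.54 to 0.0072.

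Of 155 genes named from the comparisons, none of the called ones changed sign, and 42 values of uncalled ones did. In the fits that only left arrays out, the sign of the called ones was fixed, since their mutant and control arrays do not overlap. Among the uncalled genes, those that changed sign with the mean of all probe sets were Btg2 (-0.046), Ccng1 (-0.0050), Il1rap (-0.045) and Gas2 (0.12). With the Gapdh covariate they were Btg2 (-0.0080), Dmp1 (-0.039), Prokr2 (-0.096) and Gas2 (0.11). With the sex covariates they were Nefm (-0.16), Dlx4 (-0.18), Dmp1 (-0.41), Chad (0.042), Dcx (0.071), Hsph1 (0.096), Fzd9 (0.45) and Cldn7 (0.60). Without control 1 they were Matn1 (-0.32), Snorc (-0.15) and S100b (-0.21), without control 2 Dmp1 (-0.091) and Fzd9 (0.031), and without control 3 Fabp4 (0.052) and Gas2 (0.14). Without mutant 2 Hsph1 was 0.0072, and without mutant 3 Gas2 was 0.10. Without mutants 1 and 3 they were Btg2 (-0.096), Smurf1 (-0.049), Sufu (-0.065), Prokr2 (-0.047), Dmp1 (-0.12), Cebpa (-0.22), Fgf20 (0.012), Hbb-bh1 (0.066), Ccne2 (0.074), Rtp4 (0.087) and Gas2 (0.25). Without mutants 2 and 3 they were Foxd1 (-0.035), Snap25 (-0.072), Lyve1 (-0.18), Fzd9 (0.043), Thbs4 (0.072) and Hsph1 (0.33).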
